A study of Mus musculus with 4 samples.

Results

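Mature dendritic cells (DCs), for which *Ccr7* and *Fscn1* are marker genes, were examined in the inflamed spinal cord (SC) of mice with EAE, the mouse model of multiple sclerosis. They were chosen by measured values: a droplet barcode qualified with at least 2000 unique molecular identifiers (UMIs, which count each captured transcript once) and under 10% mitochondrial UMIs. A member further needed at least 4 UMIs of *Fscn1*, *Ccr7*, and *Cacnb3* together and at least 15 of the MHC class II genes *H2-Aa*, *H2-Ab1*, and *H2-Eb1*, with at most 1 UMI of T cell genes (*Cd3e*, *Cd3d*, *Cd3g*, and *Lat*) and at most 2 of endothelial genes (*Cldn5*, *Cdh5*, *Egfl7*, and *Esam*). This gave 232 cells of the 26525 barcodes that passed the depth and mitochondrial limits. The 4 libraries were mIgG1, Ang2 Ab, Ctrl, and *EC-Ang2*, and wherever 4 values follow one another they are in that order. Members were 56 of 6995, 80 of 7488, 53 of 6627, and 43 of 5415 barcodes. Since the rule takes a sum, not every member carries each marker, and *Fscn1* was at 0 UMIs in 22, 29, 22, and 17 members. What the rule used is described below and is no finding.

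Each of the 4 libraries stood for 1 condition, and how many mice each held is not given in the sources used here, so that no difference between conditions could be tested. In all of them EAE was induced with MOG35-55 in CFA along with pertussis toxin, and viable CD45+ leukocytes and CD31+ endothelial cells (ECs) were sorted in equal numbers from the SC. The blockade pair was C57Bl/6JOlaHsd mice 15 weeks of age at 14 days post immunization (dpi), which received a control antibody (mIgG1) or one that blocks Ang2 (Ang2 Ab) from the day of immunization. The overexpression pair was mice of the C57Bl/6JCrl strain, 12 to 14 weeks of age, at 12 dpi. *EC-Ang2* mice carried both *VE-cadherin-tTA* and *Tet-OS-Ang2*, so that the transgene was driven in ECs, and the transgene was kept off by doxycycline until birth. Ctrl were littermates with only 1 of the transgenes. The pairs differed in strain, age, time point, and, by the study's methods, the dose of pertussis toxin, and no level was compared across them by a ratio. As deposited, the libraries held 66631583, 57954609, 52084739, and 52796061 UMIs, and their members 437135, 549942, 585608, and 351950. *Angpt2*, which encodes Ang2, had 44.8, 277, 61.3, and 1063 counts per 1000000 UMIs (CPM) in endothelial barcodes, so that the *EC-Ang2* library was the highest, as its label says, and Ang2 Ab was above mIgG1. In the mature DCs it had 0, 0, 1, and 16 UMIs.

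DCs take up antigen in tissue, and when they mature they stop doing so, raise class II and co-stimulatory molecules on their surface, and migrate. CCR7 is the receptor that guides them along CCL19 and CCL21 into lymphatics and the T cell zone of lymph nodes. Fascin, the product of *Fscn1*, bundles actin in the long processes of mature DCs, and *Cacnb3* encodes a calcium channel β subunit that is a transcript marker of the same state. This maturation runs through NF-κB signaling, with RelB and p52 as its late arm, and yields chemokines that draw T cells, of which CCL22 and CCL17 both act on CCR4. The same cells also carry molecules that restrain T cells, such as PD-L1 and CD200.

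The label was checked with genes that the rule had not used. *Ccl22*, the fourth marker given for these cells, had a UMI in 41 of 56, 73 of 80, 31 of 53, and 36 of 43 members, at a median depth of 6166, 6454, 8984, and 7123 UMIs. At an equal 2000 UMIs per cell, these shares were 62.5%, 77.5%, 47.2%, and 72.1%. Class II-high cells are barcodes within all limits of the rule except that on the maturity genes. The same measure in class II-high cells with 10 or more C1q UMIs and at most 1 each of the maturity genes and of *Flt3*-type DC genes (called C1q cells), which should lack it, was 0.595%, 0.596%, 1.41%, and 0.279%, at a median depth of 8745, 8086, 9130, and 10457 UMIs. *Flt3*, which encodes the growth factor receptor of classical DCs, had 68.6, 72.7, 34.2, and 42.6 CPM in members. In C1q cells, whose choice limits this gene, it had 0.359, 0.329, 1.01, and 0 CPM. *Zbtb46*, a transcription factor of classical DCs, was sparse, with 8, 14, 5, and 12 UMIs in the members of each library.

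Part of the members also carried RNA of genes that mark other cells. The complement genes *C1qa*, *C1qb*, and *C1qc*, which mark macrophages and microglia, reached 10 UMIs together in 11, 11, 20, and 2 members, or 19.6%, 13.8%, 37.7%, and 4.65% of them. These 44 C1q-positive members had a median of 12211, 10524, 15987, and 15642.5 UMIs per cell, against 5400, 5966, 6954, and 6735 in the 188 C1q-low members. They also had 3 or more UMIs of microglial genes in 5, 6, 17, and 2 cells, against 0, 0, 0, and 1 of the C1q-low members. In Ctrl, 12 of the 20 had under 8 UMIs of the 3 maturity genes of the rule. Scrublet scores rank droplets by their likeness to summed pairs of cells. The highest scores took 1426 of the 26525 passing barcodes, and among them 24 members. These were 12 of the 188 C1q-low and 12 of the 44 C1q-positive members. By library, 2, 4, 0, and 6 of them were C1q-low and 2, 3, 7, and 0 were C1q-positive. Whether these droplets held 1 cell or more was not tested. Because the C1q-positive share differed between libraries, most comparisons within each pair are given both for all members and for C1q-low members, and those with Flt3-type cells in the C1q-low members, which number 45, 69, 33, and 41. Where a value is for all members, this is said.

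**Figure D1:**
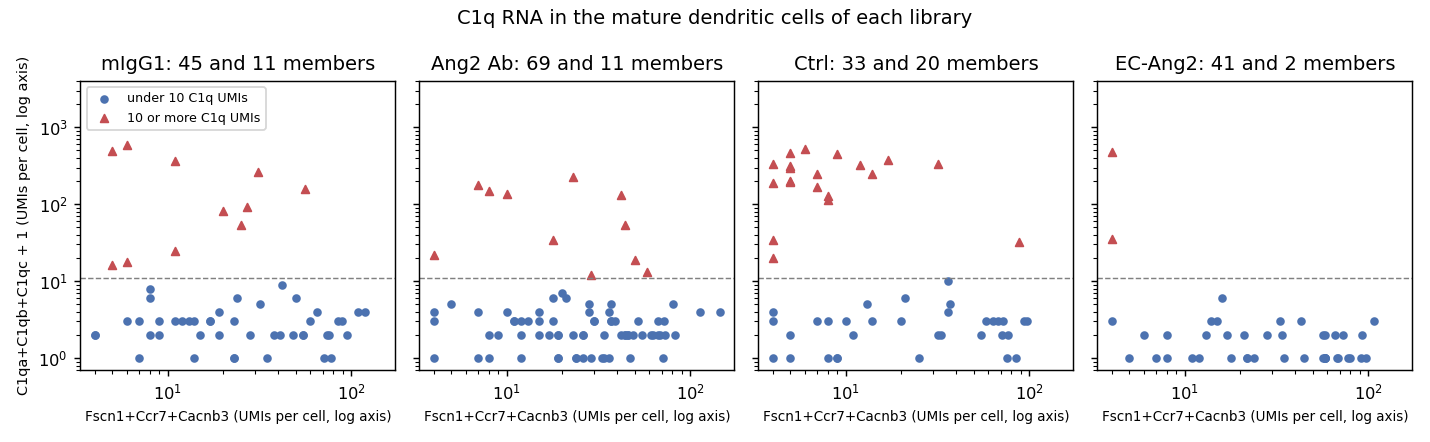
Each point is 1 member, with the UMIs of *Fscn1*, *Ccr7*, and *Cacnb3* together on the x axis and the UMIs of *C1qa*, *C1qb*, and *C1qc* together plus 1 on the y axis (both log axes), in 1 panel per library. The dashed line marks 10 C1q UMIs, and the 20 Ctrl cells above it lie mostly at the low end of the maturity genes.

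The mature programme is known to rest on NF-κB, so the promoters of its genes were read for a κB-type pattern, GGG and CC with 5 bases of any kind between them. Windows from 250 bases before to 50 after each start were taken from RefSeq (GRCm38.p6) and searched on both strands. Matches can overlap one another, and a gene counted as 1 however many its windows held. Of 27 genes on a list of the mature DC programme, 21 had a window, and 15 of these (71.4%) held a match, against 53.5% of all 27025 genes with a window. For 15 NF-κB pathway genes it was 9 of 13 (69.2%), and for 16 chemokine ligand genes 5 of 10 (50%). The lists share genes, since *Nfkb2*, *Relb*, *Traf1*, and *Birc2* are on both the mature and the NF-κB list and *Ccl22* is on both the mature and the chemokine list. A match of these short letters is a description and no binding site. Shown here are stretches of the genes whose levels carry the sections that follow, 5′ to 3′ on the strand of the gene, with 1 of its matches in capitals.
Ccl22 (chr8:94745502-94745551, + strand): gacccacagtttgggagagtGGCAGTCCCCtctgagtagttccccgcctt
Nfkb2 (chr19:46304678-46304727, + strand): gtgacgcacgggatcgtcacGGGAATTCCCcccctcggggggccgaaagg
Il4i1 (chr7:44836069-44836118, + strand): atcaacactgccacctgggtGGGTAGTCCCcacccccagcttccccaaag
Tbc1d4 (chr14:101609236-101609285, - strand): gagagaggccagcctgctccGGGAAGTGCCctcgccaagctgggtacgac
Nudt17 (chr3:96708643-96708692, - strand): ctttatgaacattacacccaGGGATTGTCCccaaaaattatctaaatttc
Fscn1 (chr5:142960276-142960325, + strand): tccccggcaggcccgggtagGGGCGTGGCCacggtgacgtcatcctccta
The match in *Ccl22* reads along the opposite strand, 162 bases before the start, whereas those of *Nfkb2* and *Il4i1* read along both, 39 and 199 bases before it. The others read along the gene strand, 74 bases before the start in *Tbc1d4*, 112 in *Nudt17*, and 59 in *Fscn1*.

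The 3 genes of the rule varied widely among its members. *Ccr7* (chromosome 11, 99144196 to 99155077 on GRCm38) had a UMI in 55 of 56, 80 of 80, 46 of 53, and 42 of 43 members and in every C1q-low member. Its UMIs per C1q-low cell ran from 2 to 58, 1 to 66, 4 to 71, and 3 to 80, with medians of 19, 18, 21, and 24. *Fscn1* (chromosome 5, 142960343 to 142973185) was at 0 in 17 of 45, 26 of 69, 17 of 33, and 16 of 41 C1q-low members, and at up to 63, 88, 52, and 58 UMIs in others. *Cacnb3* (chromosome 15, 98630840 to 98644529) had at most 14 UMIs in a cell. Membership thus rested on *Ccr7* in most cells, and *Fscn1* divided them. Just inside the threshold, 4, 5, 14, and 4 members had 4 or 5 UMIs of the 3 genes, of which 2, 3, 3, and 1 had a *Ccl22* UMI. Just outside it, 30, 27, 31, and 13 class II-high cells had 2 or 3 UMIs, of which 6, 11, 4, and 2 had one.

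All members together, C1q-positive ones included, carried a large part of the captured RNA of their leading genes. They were near 1% of barcodes but held 43.1% (exact binomial 95% interval 40.4% to 45.9%, which covers counting error only, as do all intervals here) of the *Ccl22* UMIs of passing mIgG1 barcodes, and 59.1%, 56.6%, and 67.6% of those in the other libraries. These UMIs lay unevenly over the members, of which 5 cells held 54.5%, 30.9%, 54.6%, and 61.7% of them. For *Il4i1*, a secreted amino acid oxidase that limits T cell proliferation, the shares were 39.1%, 47.9%, 49.0%, and 40.8%. *Bcl2l14*, a relative of the BCL2 family, had 22.6%, 43.4%, 35.6%, and 33.3% of its UMIs in members. By contrast they held 1.76%, 1.72%, 3.11%, and 1.78% of the UMIs of *Il1b*, an inflammatory cytokine made by many myeloid cells.

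For a measure of what sets these cells apart, C1q-low members were set beside class II-high cells of the Flt3 type. These had 2 or more UMIs of *Flt3*, *Zbtb46*, *Kmo*, *Cd209a*, *Clec9a*, and *Xcr1* together, at most 1 of the 3 maturity genes, and at most 2 of C1q. They also had at most 1 UMI of the B cell genes *Cd79a*, *Cd79b*, and *Ms4a1*, a limit that the rule for members lacks. Among all members, 1, 0, 2, and 0 had 2 or more B cell UMIs. Flt3-type cells numbered 35, 46, 23, and 27, with a median of 6171, 6260, 8976, and 8027 UMIs. A gene was counted when it was at least 2-fold higher or lower in all 4 libraries and had 100 or more UMIs in both kinds of cell together. With UMIs under 3 in a library set to 3, 133 of 2635 genes (5.05%) were higher in C1q-low members and 59 (2.24%) were lower. With C1q-positive members kept, 131 of 3234 genes (4.05%) were higher and 44 (1.36%) were lower. Since both kinds of cell were picked on their expression, these are descriptions with no test.

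Of the 27 genes of the mature DC programme, 22 had enough UMIs for this comparison, and 19 were higher in C1q-low members in all 4 libraries, against 5.05% of all genes. The list was chosen with earlier results of these data known. *Ccl22* had 1802, 3328, 3458, and 3371 CPM in C1q-low members and 28.1, 54.3, 166, and 18.4 CPM in Flt3-type cells. *Socs2*, a cytokine signaling suppressor, had 313, 254, 281, and 365 CPM against 8.04, 12.1, 14.6, and 9.18. *Serpinb6b* and *Serpinb9*, which encode protease inhibitors that protect cells from granzymes, had 639 to 989 and 608 to 916 CPM across the libraries, against at most 81.5 and 66.4. *Tbc1d4*, a regulator of vesicle transport, had 424, 358, 327, and 306 CPM against 24.1, 36.2, 14.6, and 22.9. *Il4i1* had 446, 585, 715, and 593 CPM, against 8.04, 6.03, 63.4, and 64.2. In each of these genes, the lowest library of C1q-low members lay above the highest library of Flt3-type cells. *Nudt17*, for which a hydrolase is predicted, varied more, with 230, 146, 46.2, and 62.4 CPM in C1q-low members and 0 UMIs in the Flt3-type cells of all 4 libraries. *Cd83*, a surface marker of mature DCs, was not among the 19, at 813, 763, 946, and 717 CPM against 362, 501, 444, and 445.

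Outside the list, *Cd63*, a tetraspanin of late endosomes, had 1230.3, 1059, 565, and 845 CPM in C1q-low members and 72.3, 103, 19.5, and 9.18 CPM in Flt3-type cells. *Fabp5*, a fatty acid carrier, had 917, 1203, 873, and 1048 CPM against 68.3, 139, 29.3, and 32.1. *Ccl5*, *Arl5c*, *Procr* (the protein C receptor), and *Rgs1* (a regulator of G protein signaling that dampens chemokine receptors) were the other genes outside it among the 12 that stood farthest apart. Farthest in the other direction were *Ifitm6*, *Arhgap15*, *Ppfia4*, *Ppt1*, and *Nucb2*. *Alox5ap*, which serves leukotriene synthesis, had 173, 111, 165, and 159 CPM against 659, 673, 805, and 734. *Gpr171*, a peptide receptor, had 205, 109, 181, and 284 CPM against 756, 673, 688, and 940, and *Fcgrt*, the neonatal Fc receptor, 32.4, 43.9, 42.3, and 37.4 against 177, 151, 137, and 165. *Siglech*, a microglial and plasmacytoid DC lectin, had 2 UMIs in the C1q-low members of Ctrl and 0 in those of the other libraries.

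**Figure D2:**
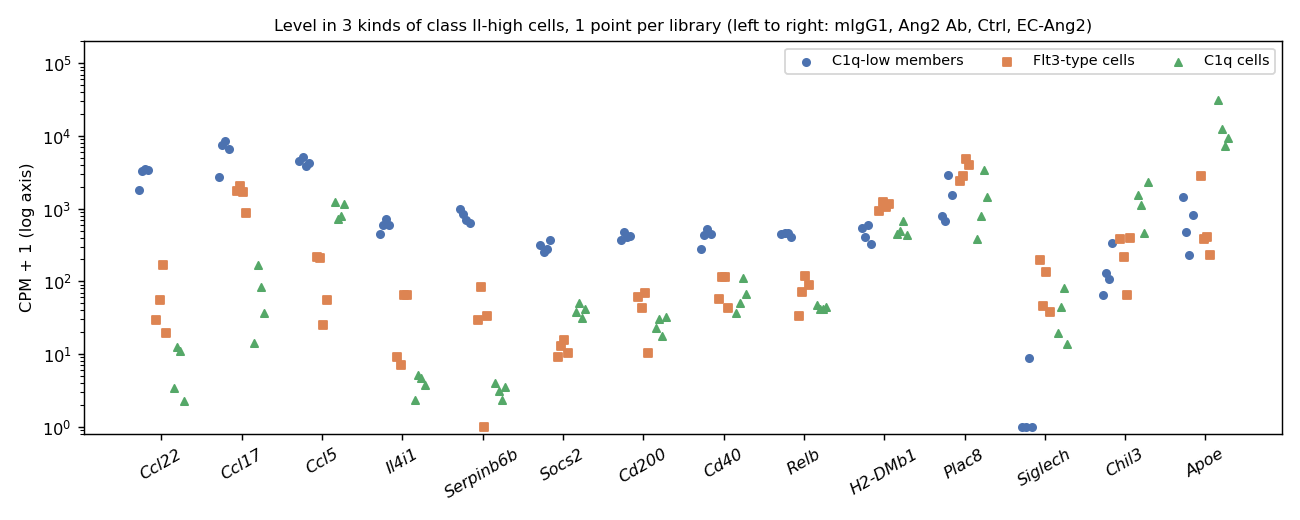
Each point is the CPM plus 1 (log axis) of a gene in 1 library, for C1q-low members, Flt3-type cells, and C1q cells, with the libraries from left to right as mIgG1, Ang2 Ab, Ctrl, and *EC-Ang2*. *Ccl22* lies at 1802 CPM or above in C1q-low members and at 166 CPM or below in the other cells, whereas *H2-DMb1* lies at 592 CPM or below in C1q-low members and at 940 CPM or above in Flt3-type cells.

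Beside C1q class II-high cells, 279 of 8482 genes (3.29%) were at least 2-fold higher in all members and 141 (1.66%) were lower in all 4 libraries. *Serpinb6b* stood farthest apart, with 714, 749, 371, and 585 CPM in all members, 989, 853, 696, and 639 CPM in C1q-low members, and at most 3.05 CPM in C1q cells. *Spint2*, a protease inhibitor, *P2ry10*, a lysophosphatidylserine receptor, and *Klrd1*, better known as the NK receptor subunit CD94, were also among the 12 genes farthest apart. *Klrd1* had 229, 202, 150, and 222 CPM in all members and 349, 210, 250, and 234 CPM in C1q-low members, against at most 5.71 in C1q cells and 402, 302, 346, and 491 CPM in Flt3-type cells. *F13a1*, *Pf4*, *Chil3*, and *Ms4a7*, all genes of monocyte-derived macrophages, were among the 12 that were lowest in members. *Chil3* had 114, 169, 76.8, and 386 CPM in all members and 64.8, 127, 108, and 334 CPM in C1q-low members, against 1560.5, 1114, 467, and 2323.

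Of 11 chemokine genes with enough UMIs, *Ccl22* and *Ccl5* were higher in C1q-low members than in Flt3-type cells in all 4 libraries, against 5.05% of all genes, and none was lower. *Ccl5* (chromosome 11, 83525778 to 83530518), whose product draws T cells and monocytes, had 4551, 5123, 3858, and 4207 CPM in C1q-low members, against 217, 208, 24.4, and 55.1 in Flt3-type cells. It had 1232.5, 728, 797, and 1154 CPM in C1q cells. *Ccl17* (chromosome 8, 94810453 to 94812036), which lies beside *Ccl22* (94745590 to 94751699), had 2702, 7593, 8539, and 6586 CPM in C1q-low members and 1748, 2021, 1673, and 867 CPM in Flt3-type cells. It was therefore not a transcript of mature cells alone, and in mIgG1 its levels in the 2 kinds of cell differed by less than 2-fold. *Cxcl16*, the membrane-bound ligand of CXCR6, had 942, 1013, 1139, and 1004 CPM against 502, 371, 395, and 248.

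These chemokine UMIs were spread unevenly over cells. The share held by the 5 highest cells was smallest for *Ccl22* and *Ccl17* in Ang2 Ab. That library also had the most C1q-low members, so that 5 cells were a smaller part of them. *Ccl22* was at 0 in 10, 6, 9, and 6 C1q-low members and reached 118, 112, 231, and 206 UMIs in the highest. The 5 highest cells held 59.5%, 32.5%, 58.5%, and 61.8% of the *Ccl22* UMIs of C1q-low members in each library. For *Ccl17*, they held 71.8%, 34.1%, 62.3%, and 63.2%, and for *Ccl5* 44.5%, 50.2%, 78.2%, and 62.9%. Counting intervals on such sums leave out this spread between cells and are too narrow for the cells as a sample.

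Antigen presentation genes were read next. Of 12 measured genes of class II loading and processing, 0 were higher in C1q-low members than in Flt3-type cells in all 4 libraries, and 1 was lower, against 5.05% and 2.24% of all genes, which is near that background. The lower gene was *Ctsl*, a lysosomal protease, with 54.0, 53.2, 53.9, and 71.7 CPM against 342, 178, 205, and 174. *Cd74*, the class II invariant chain, had 30577, 32219, 32787, and 28553 CPM against 36265, 34809, 33271, and 34090.0. *H2-DMb1*, a chain of the peptide exchanger of class II, had 543, 402, 592, and 324 CPM against 940, 1228, 1058, and 1142, which was under 2-fold in mIgG1 and Ctrl. Of 10 class I pathway genes, 0 were higher or lower by 2-fold in all 4 libraries, also near the background.

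Co-stimulatory genes were higher in C1q-low members for 4 of 6 measured members of a 9-gene list, against 5.05% of all genes. *Cd40*, the receptor for T cell help, had 281, 439, 523, and 452 CPM against 56.3, 115, 112, and 41.3. *Cd80*, a ligand of CD28, had 194, 222, 204, and 215 CPM against 56.3, 54.3, 82.9, and 59.6, and *Icam1* and *Tnfsf9* (4-1BB ligand) were the others. *Cd86*, also a ligand of CD28, had 378, 400, 600, and 409 CPM against 241, 281, 346, and 271. *Tnfsf4* and *Cd70*, a pair of ligands that act on activated T cells, had 0 UMIs in Flt3-type cells and C1q cells, and 4, 0, 1, and 2 and 2, 7, 4, and 11 UMIs in C1q-low members, which are too few to place the libraries in an order.

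Of molecules that restrain T cells, 3 of 8 measured members of a 15-gene list were higher and 1 was lower, against 5.05% and 2.24% of all genes. *Cd274*, which encodes PD-L1, had 295, 386, 331, and 309 CPM against 109, 72.4, 127, and 64.2. *Pdcd1lg2*, which encodes PD-L2, had 101, 125, 192, and 184 CPM against 20.1, 45.3, 58.5, and 22.9. *Cd200*, a ligand that quiets myeloid cells, had 371, 470, 400, and 418 CPM against 60.3, 42.2, 68.3, and 9.18. *Havcr2* (TIM-3) was lower, with 14.4, 11.6, 11.5, and 31.2 CPM against 104, 106, 34.1, and 87.2. *Il10*, *Itgb8*, and *Ido2* had 0 UMIs in all members, which allows up to 3 UMIs per library, or 6.86, 5.46, 5.12, and 8.52 CPM.

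Few cytokine genes were detected at a level that could be compared. *Il12b* (chromosome 11, 44400063 to 44414033), the p40 chain of IL-12 and IL-23, had 432, 197, 158, and 90.4 CPM in C1q-low members and 0 UMIs in Flt3-type cells. It was found in 12, 13, 4, and 8 C1q-low cells, and the 5 highest held 80%, 72.9%, 100%, and 89.7% of its UMIs. *Il12a* and *Il23a*, which encode the partner chains, had at most 1 and 3 UMIs in the C1q-low members of a library. *Il1b* had 2018, 1575, 3381, and 3368 CPM against 1202, 2187, 1882, and 2106, so that the mature cells had the higher level in all libraries except Ang2 Ab. *Il1rn*, the IL-1 receptor antagonist, had 353, 409, 854, and 680 CPM against 137, 202, 234, and 64.2.

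Genes of NF-κB signaling were higher for 7 of 14 measured members, against 5.05% of all genes. These were *Nfkb2*, *Rel*, *Relb*, *Nfkbia*, *Traf1*, *Birc2*, and *Tnfaip3*, of which *Nfkbia* and *Tnfaip3* encode inhibitors of the pathway that it induces itself. *Relb*, the late-arm subunit, had 453, 465, 462, and 402 CPM against 32.1, 69.4, 117, and 87.2, and its 4 libraries lay closer together than those of any chemokine named above. *Traf1*, an adaptor of TNF receptors, had 626, 587, 704, and 483 CPM against 121, 118, 171, and 128. *Map3k14*, the kinase NIK that starts the late arm, had 137, 130, 127, and 103 CPM against 56.3, 69.4, 63.4, and 87.2 and did not reach 2-fold in Ang2 Ab or *EC-Ang2*. Of 7 measured survival genes, *Bcl2a1b*, *Bcl2a1d*, *Birc2*, and *Cflar*, which oppose apoptosis, were higher, against 5.05% of all genes. *Bcl2a1b* had 2299, 2394, 2596, and 3159 CPM against 679, 938, 658, and 688. *Bcl2a1b* and *Bcl2a1d* are near-identical copies, so the split of UMIs between them is uncertain.

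Genes of cell shape and of migration were mixed. *Marcks*, *Marcksl1*, and *Basp1*, which bind actin or the membrane beneath it, were higher in all 4 libraries, 3 of 10 on the cytoskeleton list, against 5.05% of all genes. *Marcksl1* had 1878, 2017, 2062, and 2311 CPM against 165, 259, 322, and 91.8. Among other migration receptors, *Ptger4*, the prostaglandin E2 receptor EP4 that promotes DC migration, had 158, 153, 162, and 103 CPM against 40.2, 48.3, 48.8, and 32.1. *Ccr2*, the receptor that brings monocytes into tissue, was lower, with 39.6, 13.9, 34.6, and 24.9 CPM against 113, 115, 288, and 101. Of 14 interferon-induced genes, 0 were higher or lower in all 4 libraries, against 5.05% and 2.24% of all genes, which is near the background.

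C1q-low members differed among themselves in their *Fscn1* RNA. They were divided at 3 *Fscn1* UMIs, a value chosen after the data were seen, into 23, 36, 13, and 22 *Fscn1*-high and 22, 33, 20, and 19 *Fscn1*-low cells. *Fscn1*-high cells had a median of 4981, 4924, 6996, and 5548 UMIs and *Fscn1*-low cells one of 6077, 6848, 6902, and 8134, so that *Fscn1*-high cells were the shallower ones in all libraries except Ctrl, where the medians were close. The median of the 3 maturity genes together was 55, 43, 71, and 58 UMIs against 13, 15, 9.5, and 15. The genes that follow are a description, since *Fscn1* was read in the same cells and the 12 highest and 12 lowest genes were ranked by their smallest ratio over the 4 libraries, which fixes that the libraries go one way.

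*Tnfrsf4*, which encodes OX40, had 271, 332, 271, and 261 CPM in *Fscn1*-high cells, from 37, 65, 27, and 37 UMIs, and 1, 1, 0, and 0 UMIs in *Fscn1*-low cells. *Serpinb6b* had 1837, 1664, 1666, and 1250 CPM against 170, 182, 93.5, and 156. *Cd63* had 2173, 1971, 1445, and 1631 CPM against 318, 304, 18.7, and 223. *Tbc1d4*, *Cd200*, and *Socs2* were likewise among the 12 genes highest in the *Fscn1*-high class in every library, and *Nudt17* had 439, 301, 120, and 106 CPM against 28.3, 16.9, 0, and 27.9. *Ccr7* had 5144, 4284, 5209, and 5579 CPM against 2519, 2550, 1727, and 2050. The split used *Fscn1* alone, but both genes entered the sum that chose the cells. *Relb* had 644, 715, 863, and 678 CPM against 269, 258, 212, and 184. *Irf8*, a transcription factor of the cDC1 lineage, had 1332, 2027, 2088, and 1787 CPM against 736, 770, 586, and 670. *Naaa*, another cDC1 gene, went the other way, with 2, 2, 2, and 1 UMIs in *Fscn1*-high cells against 17, 33, 20, and 22. *Itgae*, also of cDC1, had 0 UMIs in *Fscn1*-high cells of each library against 5, 14, 1, and 0, too few in Ctrl and *EC-Ang2* to give a direction. No count over the cDC1 list is given for this division.

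Among the 12 genes lowest in *Fscn1*-high cells were *Fcgr2b* and *Fcgr1*, receptors for the Fc part of IgG. In *Fscn1*-low cells they had 241, 110, 331, and 503 CPM and 92.0, 123, 156, and 140 CPM, against 29.3, 10.2, 60.2, and 70.6 CPM and 14.6, 10.2, 10, and 21.2 CPM in *Fscn1*-high cells. *Clec4n* (dectin-2), a receptor for fungal sugars, had 509, 266, 617, and 447 CPM against 65.9, 51.1, 0, and 63.6. *Ms4a6c*, *Ms4a6d*, *Mpeg1*, and *Gm2a* were also among the 12 genes lowest in *Fscn1*-high cells. Outside these 12, and named after their values were seen, *H2-DMb1* had 976, 643, 842, and 469 CPM in *Fscn1*-low and 95.1, 112, 191, and 141 CPM in *Fscn1*-high cells, and *Cd74* had 41950.0, 39628, 36346, and 31619.8 CPM against 18814, 23272, 27059, and 24675. *Plac8*, a monocyte and plasmacytoid DC gene, had 1090, 1104, 4266, and 2446 CPM against 483, 143, 783, and 353.

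The chemokines did not follow the division in every library. *Ccl22* had 5412 CPM in *Fscn1*-high and 1603 CPM in *Fscn1*-low cells of Ang2 Ab, 6353 and 1659 in Ctrl, and 4484 and 2491 in *EC-Ang2*, but 1346 and 2243 in mIgG1. *Ccl17* was lower in *Fscn1*-high cells in mIgG1 (1127 against 4224 CPM), Ctrl (8060 against 8837), and *EC-Ang2* (3340 against 9153), and higher in Ang2 Ab (8077 against 7192). *Il1b* was lower in *Fscn1*-high cells in all 4 libraries, with 1485, 1297, 2108, and 2323 CPM against 2533, 1806, 4172, and 4194.

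**Figure D3:**
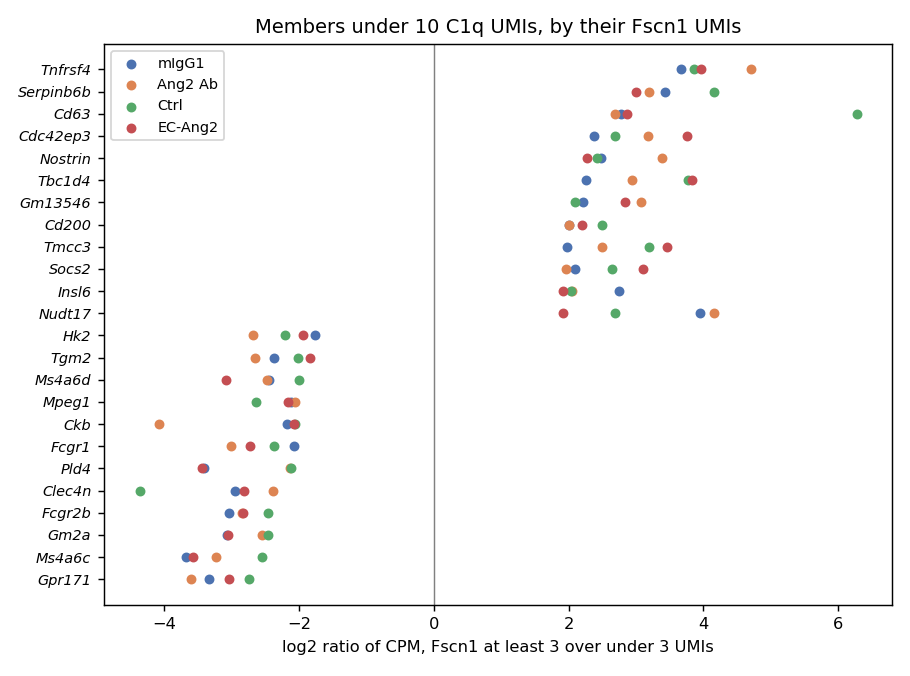
Each point is the log2 ratio of CPM in C1q-low members with at least 3 *Fscn1* UMIs over those with under 3, in 1 library, for the 12 genes highest and the 12 lowest in all libraries, with UMIs under 3 set to 3. All 4 points of each gene lie on 1 side of 0 because the genes were ranked by their smallest ratio.

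Genes of the 2 classical DC lineages were read at 2000 UMIs per cell. UMIs of 2 or more of the cDC1 marker list, to which *Irf8* gave most, were found in 48.9%, 66.7%, 51.5%, and 53.7% of C1q-low members, and in 65.7%, 65.2%, 43.5%, and 70.4% of Flt3-type cells. For the cDC2 list the shares were 13.3%, 13.0%, 33.3%, and 24.4%, and 31.4%, 41.3%, 65.2%, and 25.9%. Defining genes of both lineages were sparse in C1q-low members. *Xcr1*, the cDC1 chemokine receptor, had 6, 24, 0, and 2 UMIs, *Clec9a*, the cDC1 receptor for dead cells, had 5, 10, 3, and 4, and *Cd209a*, a cDC2 lectin, had 6, 3, 18, and 1. Flt3-type cells were picked in part by these 3 genes, which bears on their levels of cDC1 and cDC2 markers. *Naaa*, a lipid hydrolase of cDC1, had 68.3, 81.0, 84.6, and 71.7 CPM against 667, 649, 244, and 587 in Flt3-type cells. Origin in either lineage was not assigned to a member.

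Markers of other cell types were also read in C1q-low members. The 8 endothelial markers outside the rule had 56, 93, 51, and 56 UMIs, or 201, 215, 196, and 175 CPM, led by *Igfbp7*. Their level in empty droplets was used to estimate RNA from broken cells, with all of these UMIs counted as such. By this estimate it was 4.00%, 3.88%, 3.96%, and 3.77% of the UMIs of C1q-low members. Whether some of these UMIs came from doublets or from the members themselves was not tested. Microglial markers had 66, 59, 47, and 56 UMIs. Neutrophil markers, led by *S100a8*, had 14, 57, 39, and 169 UMIs, and B cell markers, led by *Cd79a* where they were highest, had 24, 2, 40, and 3. The neutrophil receptor *Cxcr2* was at 0 in 3 of the 4 libraries. The 6 monocyte markers, led by *Plac8*, had 1579, 1392, 4639, and 2567 CPM, with all 6 genes present in each library. The 7 macrophage markers, led by *Apoe*, had 1817, 768, 458, and 948 CPM, and *Ms4a7*, *Mrc1*, and *Gpnmb* were at 0 in Ctrl. Both lists differed within the pairs, and their part in the pair differences given here was not tested. Genes of the mast cell and basophil list had 0 UMIs. Cycling genes had 4, 6, 3, and 7 UMIs. No barcode was a member in more than 1 library, and the libraries shared 51 to 77 passing barcodes per pair, against 48.7 to 71.0 for random draws from all barcodes of the chemistry.

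The share of mature DCs was compared within each pair. In the blockade pair they were 0.801% (0.605% to 1.04%) of passing mIgG1 barcodes and 1.07% (0.848% to 1.33%) of Ang2 Ab barcodes. In the overexpression pair they were 0.8% (0.6% to 1.04%) of Ctrl and 0.794% (0.575% to 1.07%) of *EC-Ang2* barcodes. The intervals of each pair overlapped. The log2 ratio was 0.42 (−0.09 to 0.94) for Ang2 Ab over mIgG1 and −0.01 (−0.63 to 0.60) for *EC-Ang2* over Ctrl. Without the C1q-positive members, the shares were 0.643%, 0.921%, 0.498%, and 0.757%, with log2 ratios of 0.52 (−0.04 to 1.09) and 0.60 (−0.09 to 1.31). As a share of class II-high barcodes, they were 2.90%, 5.15%, 7.10%, and 4.70%, from 1929, 1553, 747, and 914 such barcodes. That log2 ratio was 0.83 (0.32 to 1.35) in the blockade pair, so that the smaller number of other class II-high cells in Ang2 Ab enters it. In the overexpression pair it was −0.59 (−1.21 to 0.02), and 0.02 (−0.67 to 0.73) for C1q-low members. Since immune cells and ECs were sorted in equal numbers, a share of barcodes says nothing of cells per SC.

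**Figure D4:**
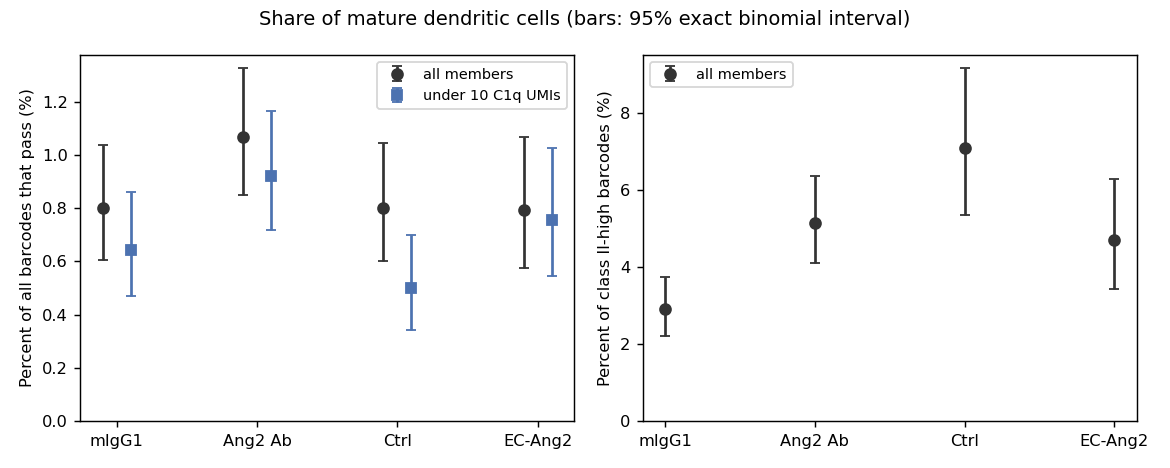
Points give the share of mature DCs in each library in percent, with bars for the 95% exact binomial interval, among all passing barcodes on the left (circles for all members, squares for C1q-low members) and among class II-high barcodes on the right. The circles of each pair on the left have overlapping bars, and removal of the C1q-positive members moves Ctrl most, from 0.8% to 0.498%.

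In the blockade pair, the question was what differed in mature DCs after Ang2 neutralization. A gene counted when its level differed at least 2-fold, among genes with 50 or more UMIs in both libraries together and a UMI in 10% of the cells of either, which is a rule of size and no test. Of 2419 genes, 47 (1.94%) were higher in Ang2 Ab and 69 (2.85%) were lower. In C1q-low members it was 44 of 1772 (2.48%) higher and 23 (1.3%) lower. The median log2 ratio of all genes was 0.05, and 0.04 in C1q-low members.

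Of the chemokine ligand list, 10 of 13 measured genes were higher in Ang2 Ab in all members, against 54.2% of all genes. The 2-fold size was reached by 5 higher and 1 lower, against 1.94% and 2.85%. In C1q-low members 7 of 10 were higher, 3 of them by 2-fold, against 53.8% and 2.48%. *Ccl9* (−0.80), *Cxcl2* (−0.84), and *Cxcl9* were lower there, and *Ccl4* was higher (1.40). *Ccl2* had 8 and 60 UMIs in all members (2.58). The CCR4 ligands *Ccl17* and *Ccl22* were among the higher genes. *Ccl17* was at 1992 CPM in mIgG1 members and at 7044 CPM after blockade, a log2 ratio of 1.82 (counting interval 1.72 to 1.93), and 2702 and 7593 CPM in C1q-low members (1.49, 1.38 to 1.61). C1q cells of the same 2 libraries had 13.1 and 169 CPM of *Ccl17*. *Ccl22* had 1251 and 3035 CPM (1.28), and 1802 and 3328 CPM in C1q-low members (0.88, 0.74 to 1.03). By class, *Ccl22* was higher in *Fscn1*-high cells of Ang2 Ab (1346 and 5412 CPM) but lower in *Fscn1*-low cells (2243 and 1603 CPM). *Ccl17* was higher in both (1127 and 8077 CPM, and 4224 and 7192 CPM). In C1q-low cells, the median was 2 *Ccl17* UMIs in mIgG1 and 25 in Ang2 Ab, and 18 of 45 and 9 of 69 cells had 0. The median of *Ccl22* was 4 and 11 UMIs there. Single cells ran from 0 to 176 and from 0 to 423 *Ccl17* UMIs, so that the libraries overlapped over much of their range. *Ccl6* was also among the 8 genes highest in Ang2 Ab C1q-low members (101 to 446 CPM), but in all members it had 551 and 466 CPM (−0.24, −0.50 to 0.02). *Ccl5* had 4551 and 5123 CPM in C1q-low members (0.17) and a log2 ratio of 0.33 in all members. *Cxcl9*, whose product also draws T cells, was lower after blockade, with 586 and 456 CPM in C1q-low members (−0.36, −0.67 to −0.06) and a log2 ratio of −0.80 (−1.06 to −0.54) in all members. *Cxcl10*, which encodes another CXCR3 ligand, went the other way, with 277 and 463 CPM in C1q-low members (0.74, 0.35 to 1.14) and a ratio of 0.78 in all members. *Il12b* was lower, from 432 to 197 CPM in C1q-low members (−1.13, −1.55 to −0.72), on 12 and 13 cells, but fell short of 2-fold in all members (−0.64, −1.04 to −0.24).

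Interferon-induced genes were higher in Ang2 Ab for 10 of 13 measured members in C1q-low cells, with a median log2 ratio of 0.53, against 0.04 for all genes, of which 53.8% were higher. The 2-fold size was reached by 4 of the 13, against 2.48% of all genes. In all members it was also 10 of 13, with a median of 0.61. *Ifit3*, a translation inhibitor, had 25.2 and 160 CPM (7 and 69 UMIs), *Oasl1*, a sensor homologue, 71.9 and 222 CPM, *Rsad2*, which encodes viperin, 115 and 241 CPM, and *Isg15*, a ubiquitin-like protein, 1155 and 1739 CPM (0.59, 0.40 to 0.78). *Irf1*, *Ifi47*, and *Igtp* were the 3 that were lower, at −0.30, −0.13, and −0.19. Few C1q-low cells had a UMI of *Ifit3* (11.1% in mIgG1 and 11.6% in Ang2 Ab) or *Rsad2* (13.3% and 14.5%). For *Oasl1* it was 15.6% and 34.8%, and for *Isg15* 68.9% and 79.7%. Of the *Ifit3* UMIs of Ang2 Ab, 1 cell held 37.7%. Of the *Oasl1* UMIs of mIgG1, the lower library, 1 cell held 60%. The 6 measured co-stimulation and adhesion genes had a median of 0.26 in C1q-low members, with 6 of 6 above 0, against 53.8% of all genes, and 0 reached 2-fold. In all members 6 of 6 were also above 0, with a median of 0.44. In C1q-low members *Cd40* was the 1 gene of them whose interval did not span 0. *Cd40* had 281 and 439 CPM (0.65, 0.26 to 1.05), and a ratio of 0.75 in all members.

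*Apoe* and *Ctsd* were lower in Ang2 Ab. *Apoe*, a lipid carrier, had 6501 and 1440.2 CPM in all members (−2.17), and 1468 and 479 CPM in C1q-low members (−1.62, −1.86 to −1.37). *Ctsd*, a lysosomal protease, had 3109 and 562 CPM (−2.47), and 496 and 252 CPM in C1q-low members (−0.98). Both were also lower in the C1q cells of Ang2 Ab, *Apoe* with 31671 and 12317 CPM and *Ctsd* with 6068 and 3874 CPM. *Chil3*, by contrast, had 64.8 and 127 CPM in C1q-low members (0.97, 0.18 to 1.83) and was also higher in all members (0.56). *Saa3*, an acute-phase protein, had 384 and 25.5 CPM in all members, with 82.7% of its mIgG1 UMIs in 1 cell. Of 7 macrophage markers, 6 of 6 measured were lower by 2-fold in all members, against 2.85% of all genes, and 1 of 4, *Apoe*, in C1q-low members, against 1.3%, though 3 genes of this list are the C1q genes that define the classes. *Cd14*, an endotoxin co-receptor, was lower in C1q-low members (478 and 92.5 CPM), with 58.6% of the mIgG1 UMIs in 1 cell, and in all members (−2.14). C1q-positive cells were 19.6% of mIgG1 and 13.8% of Ang2 Ab members, and their part in these values is given by the C1q-low levels.

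In the overexpression pair, the number of genes that were lower depended on the C1q-positive members. Of 2419 genes, 44 (1.82%) were higher in *EC-Ang2* and 172 (7.11%) were lower in all members. In C1q-low members it was 29 of 1528 (1.9%) higher and 30 (1.96%) lower. All 7 measured microglial markers were lower in all members, with a median log2 ratio of −2.79, against 1279 of 2419 genes and a median of −0.04 over all genes. *Fcrls*, a microglial receptor, had 209 UMIs in the members of Ctrl against 4 in *EC-Ang2*, all 4 in 1 cell. *Ccl12* and *Ccl7*, monocyte attractants, had 501 and 70 UMIs in Ctrl against 9 and 1, and 1 cell held 82.9% of the *Ccl7* UMIs of Ctrl. Genes of the dissociation stress list had a median of −2.20 in all members, and −0.42 in C1q-low members. In Ctrl that list had 9373 CPM in C1q-positive and 3043 CPM in C1q-low members, led by *Junb*. *Apoe* turned its direction, from 1617 CPM in Ctrl and 801 in *EC-Ang2* (−1.01) to 231 and 811 CPM in C1q-low members (1.81, 1.40 to 2.24), where 1 cell held 55.0% of the *EC-Ang2* UMIs. *Ctsd* turned as well, from −1.43 to 1.39.

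The mature programme likewise depended on those cells. In all members, 20 of 21 measured genes of the programme were higher in *EC-Ang2*, with a median of 0.66, against 47.1% of all genes. In C1q-low members 9 of 20 were higher, with a median of −0.05, against 48.9% of all genes and a median of −0.01. *Ccl22* had 1646 and 3074 CPM in all members (0.90), and 3458 and 3371 CPM in C1q-low members (−0.04, −0.17 to 0.09). *Ccl17* had 4124 and 6007 CPM (0.54), and 8539 and 6586 CPM (−0.37, −0.46 to −0.29). *Ccl5* had 3858 and 4207 CPM in C1q-low members (0.12), *Cd40* 523 and 452 CPM (−0.21, −0.56 to 0.14), *Cd274* 331 and 309 CPM (−0.10, −0.53 to 0.33), and *Cd200* 400 and 418 CPM (0.06, −0.32 to 0.45). Counting intervals of the last 3 span 0. In all members these ratios were 0.85 for *Ccl5*, 0.63 for *Cd40*, 0.29 for *Cd274*, and 0.90 for *Cd200*. Of the co-stimulation and adhesion list, 2 of 6 measured genes were higher in C1q-low members, with a median of −0.28, against 48.9% of all genes. *Cd86* (−0.55, −0.90 to −0.21) and *Tnfsf9* (−0.79, −1.40 to −0.20) were lower, with intervals below 0. With all members it was 4 of 7, with a median of 0.06, against 47.1%. *Il1b* was at 3381 and 3368 CPM in C1q-low members (−0.01, −0.14 to 0.12), with a ratio of 0.24 in all members.

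Interferon-induced genes were lower in *EC-Ang2* for 10 of 11 measured members in C1q-low cells, with a median of −0.48, against 781 of 1528 for all genes. *Irf7* was the 1 gene of the 11 that reached 2-fold, against 1.96% of all genes. The same size was reached by 2 of 13 in all members, against 7.11% of all genes. *Irf7*, the factor that amplifies type I interferon, had 789 CPM in Ctrl and 256 in *EC-Ang2* (−1.62, −2.01 to −1.25), and *Isg15* had 2723 and 1516 CPM (−0.85, −1.01 to −0.68). *Rsad2* was the exception (0.22, −0.55 to 1.02). *Cxcl9*, an interferon-γ–induced ligand of CXCR3 on T cells, had 831 and 271 CPM (−1.61, −1.99 to −1.25). The highest cell held 33.8% of the *Cxcl9* UMIs in Ctrl and 32.2% in *EC-Ang2*, and 15.6% and 12.2% of those of *Irf7*. In all members, 9 of 13 were lower, with a median of −0.30, against 1279 of 2419 for all genes, and *Irf7* had 497 and 276 CPM (−0.85). There *Isg15* had a ratio of −0.08 (−0.24 to 0.07) and *Cxcl9* one of −0.71. Monocyte markers moved with these genes in C1q-low members, with 3 of 4 measured lower and a median of −1.14 (*Ly6c2* −1.46, *Ms4a4c* −1.34, and *Plac8* −0.95), and their part was not tested. *Ctla2a*, a cathepsin inhibitor, was the gene highest in *EC-Ang2* C1q-low members (30.8 and 168 CPM, from 8 and 54 UMIs), and no cell held more than 7.41% of the *EC-Ang2* UMIs. In C1q cells of the same libraries *Ctla2a* had 45.3 and 113 CPM. The study lists it among the capillary-venous EC genes that both Ang2 blockade and overexpression changed. RNA from broken cells was estimated at 3.96% and 3.77% of the UMIs of these C1q-low members. Whether the *Ctla2a* UMIs came from broken cells or from the members was not tested. *S100a8* and *S100a9*, neutrophil genes, were also among the 8 highest, with 73.9% and 89.7% of their *EC-Ang2* UMIs in 1 cell. *Mmp12* and *Chil3* were among them with all their Ctrl UMIs in 1 cell, and *Saa3*, *Cxcl2*, and *Spp1* among the 8 lowest with 97.9%, 96.7%, and 76.0% of their Ctrl UMIs in 1 cell.

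**Figure D5:**
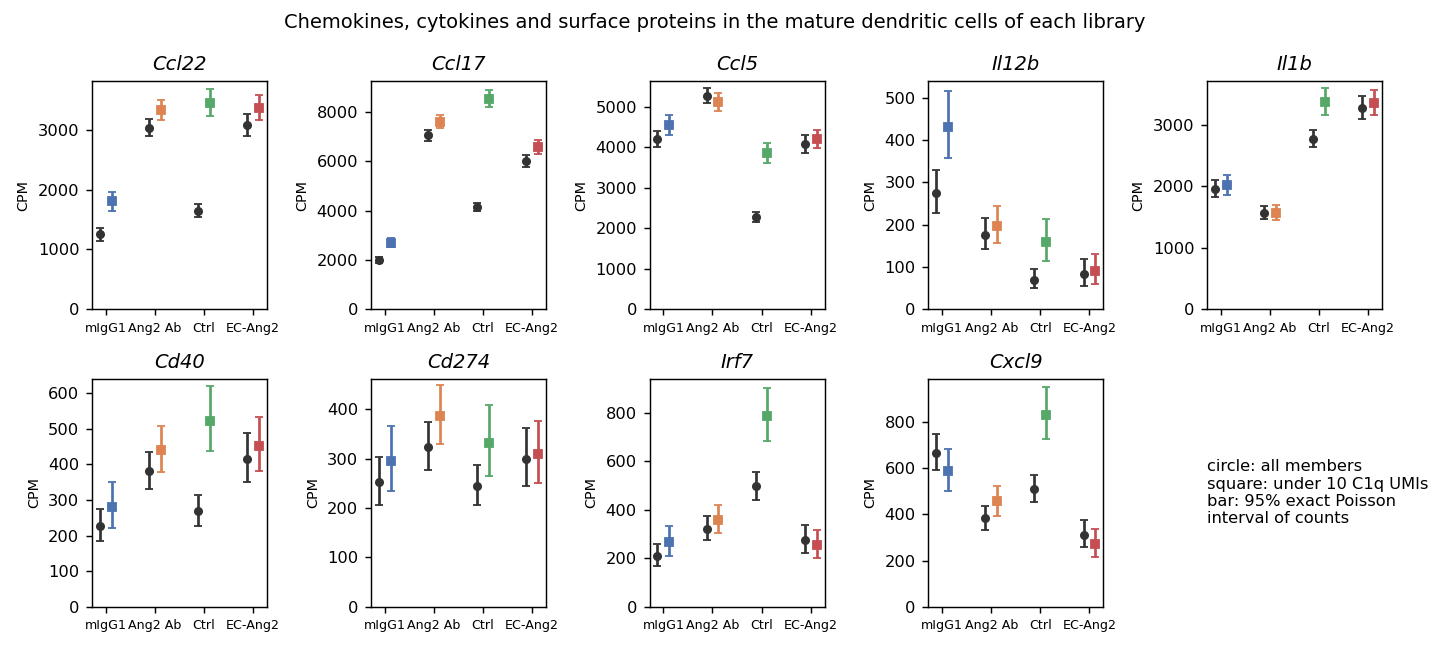
Points give the CPM of 9 genes in the mature DCs of each library, with bars for the 95% exact Poisson interval of the counts (circles for all members, squares for C1q-low members). Among C1q-low members *Ccl17* stands at 2702 CPM for mIgG1 and at 7593 CPM for Ang2 Ab, *Irf7* and *Cxcl9* are highest in Ctrl, and the distance between circle and square, as a ratio, is widest in Ctrl for most genes.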

How the data were processed

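Single-cell RNA from CD45+ and CD31+ cells of EAE SC was read in 4 libraries (10x Chromium 3′), 1 per condition. Per the submitters' processing notes, the authors used Cell Ranger 2.1.1, Seurat 2.3.4, and the mm10 build. The deposited files hold raw UMI counts per gene and barcode, unfiltered, for 27998 genes. The rule was applied to these counts, and UMIs were summed over members and divided by their total (CPM). With 1 library per condition no test was run. Intervals (95%, exact binomial or Poisson) cover counting error only, and UMIs of 1 cell are not independent. Doublets were kept, and removal by Scrublet score (Scanpy 1.11.5) was an alternative. Equal depth means random thinning to 2000 UMIs. Scripts used Python 3.11.15, NumPy 2.4.6, SciPy 1.17.1, and pandas 2.3.3, and were tested on simulated data.

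Named genes were drawn from the 8 highest and 8 lowest per pair under the size rule, and the 12 each way beside other cells. Members of 31 lists were also drawn on, and mitochondrial, ribosomal protein, and rule genes were left out of the rankings. Not all ranked genes are given. *Plet1*, the highest of all members in *EC-Ang2* over Ctrl (log2 ratio 5.41, 51 against 2 UMIs), is named only here. Members and lists were chosen with earlier results of these data known, and the divisions at 10 C1q and 3 *Fscn1* UMIs after the data were seen. Lists without a sentence of their own are given for C1q-low members beside Flt3-type cells, in all 4 libraries. The TREM2–APOE list had 1 of 3 measured genes higher (*Fabp5*) and 0 lower. Of the pan-DC list, 0 of 9 were higher and 1 was lower (*Kmo*). *Flt3*, *Zbtb46*, and *Kmo* of that list helped to pick the Flt3-type cells. Of the mural and oligodendrocyte lists, 0 genes had enough UMIs. Of the uptake list, 0 of 8 were higher or lower, and of the plasmacytoid DC list 0 of 3 were higher and 1 was lower (*Siglech*). Of all genes, 5.05% were higher and 2.24% lower. NK markers had 1, 6, 1, and 1 UMIs in C1q-low members, T cell markers 23, 62, 34, and 44, led by *Il7r*. Alternatives changed the thresholds, the depth, the doublets, and the size rule. Results on some items are not reported here.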

Additional observations from a re-analysis of the deposited data

How the results depend on the processing

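No paired analysis was possible because each condition has 1 library. For the same reason no replicate could be left out. With the rule applied to cells thinned to 2000 UMIs, 31, 50, 29, and 30 members remained, and their full counts were compared. The genes higher and lower then numbered 24 and 28 in the blockade pair, and 24 and 49 in the overexpression pair (1310 and 1323 genes entered, against 2419). Thinning means this choice of members in the sentences below, and the pairs were not compared at equal depth. With members that had 3 UMIs of other cell types removed, these were 27 and 15, and 17 and 25 (1182 and 589 genes). With C1q-positive members left out, 23 genes were lower in Ang2 Ab, and 29 were higher and 30 lower in *EC-Ang2*. With 10 or more UMIs per gene the counts were 390 and 395, and 335 and 976. With 100 or more they were 13 and 36, and 21 and 81, and at 1.5-fold 234 and 206, and 238 and 394. The genes lower in *EC-Ang2* fell to 87 when the maturity genes needed 8 UMIs and to 97 without the highest Scrublet scores. Flt3-type cells from 4 UMIs gave 72 genes higher and 31 lower in members. The log2 ratio of the share for *EC-Ang2* over Ctrl, −0.01, was 1.08 with members of other cell types removed (19 *EC-Ang2* members) and 0.60 without C1q-positive members. Directions turned for *Ccl4* in the blockade pair (−1.66 after thinning) and, in the overexpression pair, for *Tnfrsf9* (−0.41 with members of other cell types removed), *Apoe* (0.80 after thinning, 0.33 by Scrublet, 1.81 without C1q-positive members), *Ctsd* (0.30 and 1.39 after thinning and without C1q-positive members), and the macrophage list (1.81 without C1q-positive members, on *Apoe* alone). The cause of these turns was not tested. Of the values of named genes under alternatives, 620 moved by less than their counting interval, 154 moved beyond it, and 7 of those with a 2-fold difference turned. Depth limits all genes under 50 UMIs, and 1 library per condition limits every comparison.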
